A study of Rattus norvegicus with 15 samples.

Results

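Rat genes for the heavy chains of major histocompatibility complex (MHC) class I were read in liver RNA of male Sprague-Dawley rats. They were taken as every row of the expression table whose name begins with RT1- but not with RT1-B or RT1-D, the prefixes of class II chains. This gave 36 of 21576 rows. By name, 2 are RT1-A rows, 12 RT1-CE, 10 RT1-M, 2 RT1-N, 2 RT1-S and 4 RT1-T, and the other 4 are RT1-Cl, RT1-EC2, RT1-Ha and RT1-O1. RT1-Ha is a class II locus in rat nomenclature, although its name meets the rule. RT1-CE7_1 is a numbered copy of RT1-CE7, and RT1-Cl and RT1-EC2 were not found among RefSeq symbols, so no role is given to them.

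The study has 3 groups of 5 libraries. ZXD rats were kept for 4 weeks on a lipid-raising feed and then, still on it, were given Zexie Decoction, a herbal preparation, orally for another 4 weeks (2.2 g per kg daily). HFD rats ate the same feed and received saline over those weeks. The feed of both groups held 2% cholesterol, 8.3% yolk, 7% lard, 16.7% sucrose, 0.3% sodium cholate, 0.2% propylthiouracil and 66% base forage, so both groups also took a drug that blocks thyroid hormone synthesis. CON rats ate normal chow. Each group had 10 rats by its label, and the rats behind the libraries are not stated, so p-values measure the spread between these samples.

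A class I heavy chain pairs with beta-2 microglobulin and carries a short peptide from inside the cell to the surface, where CD8 T cells and natural killer cells read it. Classical chains (RT1-A in the rat) are found on most cells, at a modest level on hepatocytes and a high level on leukocytes, and interferon raises them. The RT1-CE, RT1-M, RT1-N, RT1-S and RT1-T regions hold non-classical genes, and the number and identity of genes in the RT1-CE region differ between rat haplotypes. Sprague-Dawley rats are an outbred stock, and the haplotypes of these animals were not analysed here. Many class I genes are near copies of each other, so reads may have been split or dropped between rows, and a value of a single row is uncertain in that sense.

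Library totals were 12688915 to 13532245 counts in ZXD, 12552449 to 13687385 in HFD and 12972523 to 14228052 in CON. A count of 3 equals 0.183 to 0.285 CPM, the count scaled to a common library size with TMM factors. Summed leukocyte and hepatocyte markers differed between the fed groups and CON, although the leukocyte sums of HFD and CON overlapped. The 4 pan-leukocyte markers (Ptprc, Itgb2, Cd48 and Cd53) summed to 82.9 to 816 CPM in ZXD, 57.2 to 271 in HFD and 28.6 to 82.0 in CON. The 8 hepatocyte markers summed to 26552 to 75404 CPM in ZXD, 43973 to 68177 in HFD and 121254 to 149782 in CON. Gene by gene, 4 of the 8 were called lower in each comparison with CON and 4 were not called. The median log2 fold change of the 8 was -0.63 in HFD versus CON and -0.68 in ZXD versus CON. Fewer cells of a type and less RNA per cell cannot be told apart in whole liver. The part of cell makeup in the class I values was not tested beyond a pan-leukocyte score used as a covariate, given below.

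The 5′ sequences of 3 class I genes are shown because RT1-CE16 carried the switch between libraries described below, RT1-CE13 has the promoter most like that of RT1-CE16 (90% of 300 bases identical) and yet had the opposite difference from CON in ZXD livers, and RT1-N3 had the clearest separation between fed groups and CON. RefSeq (GRCr8) holds a 300 base window, 250 before to 50 after the start, for 28 of the 36 rows. RT1-CE16 lies at chr20:3265394-3265693 and RT1-CE13 at chr20:3322750-3323049, both on the minus strand, and RT1-N3 at chr20:2666239-2666538 on the plus strand. Each is written 5′ to 3′ along its gene, with capitals on matches, on either strand, to TGACGC and CCAAT.
RT1-CE16: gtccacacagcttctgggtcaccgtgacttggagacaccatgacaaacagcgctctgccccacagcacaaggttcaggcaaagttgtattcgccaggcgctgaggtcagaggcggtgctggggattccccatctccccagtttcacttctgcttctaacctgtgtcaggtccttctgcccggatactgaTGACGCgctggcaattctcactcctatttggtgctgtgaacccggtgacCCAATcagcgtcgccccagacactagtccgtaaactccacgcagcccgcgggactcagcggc
RT1-CE13: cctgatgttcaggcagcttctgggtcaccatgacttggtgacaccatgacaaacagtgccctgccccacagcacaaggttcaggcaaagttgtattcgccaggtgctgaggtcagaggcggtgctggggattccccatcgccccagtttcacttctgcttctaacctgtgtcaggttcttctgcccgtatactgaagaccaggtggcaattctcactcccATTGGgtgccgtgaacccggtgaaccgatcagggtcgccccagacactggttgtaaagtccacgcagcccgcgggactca
RT1-N3: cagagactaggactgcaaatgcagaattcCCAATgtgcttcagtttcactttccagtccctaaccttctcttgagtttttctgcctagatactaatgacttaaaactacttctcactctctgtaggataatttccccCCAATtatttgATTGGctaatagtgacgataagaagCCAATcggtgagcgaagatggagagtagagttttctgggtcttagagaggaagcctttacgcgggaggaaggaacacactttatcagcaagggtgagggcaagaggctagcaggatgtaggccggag
TGACGC, a motif like that bound by CREB, stood in 3 of the 28 windows (RT1-CE15, RT1-CE16 and RT1-M3-1), against 6.732% of all 33469 RefSeq windows of this length. CCAAT, the NF-Y motif, stood in 19 of the 28, against 37.49% of all windows. The 2 motifs share no bases. These matches describe letters alone.

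The class I genes as a whole were expressed in every library, and their summed level differed less between groups than between livers of a group. The 36 rows summed to 403, 223, 1133, 1085 and 976 CPM in ZXD 1 to 5. They summed to 708, 1006, 642, 348 and 809 CPM in HFD 1 to 5, and to 969, 575, 515, 577 and 701 CPM in CON 1 to 5. The means were 764 ± 421 CPM in ZXD, 703 ± 241 in HFD and 667 ± 182 in CON (SD, n = 5 each). The 3 groups overlapped, and the lowest sums of all were those of ZXD 2 and HFD 4.

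**Figure D1:**
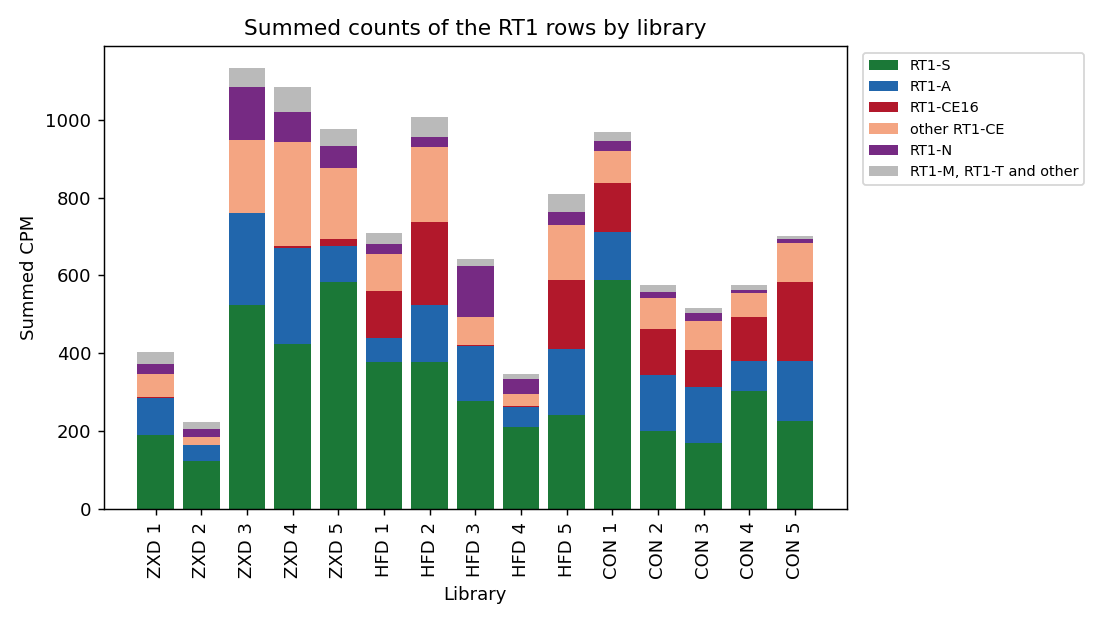
Summed CPM of the RT1 rows in each library (bars, stacked by family, from 0), with ZXD on the left, then HFD, then CON. RT1-CE16 is a visible band in HFD 1, HFD 2, HFD 5 and all 5 CON libraries. It is thin in ZXD 5, at 17.2 CPM, and not visible at this scale in ZXD 1 to 3.

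ZXD 2 and HFD 4 were low for most class I genes. Among tested rows that reached 5 CPM in a library of the group, ZXD 2 was the lowest ZXD library for 18 of 20, while it was lowest for 27.2% of all such rows of the table. HFD 4 was the lowest HFD library for 12 of 19, against 22% of all rows. In CON no library held more than 6 of the 13 lowest values. CON 4 had those 6, against 17.8% of all rows. ZXD 2 and HFD 4 also held the lowest summed pan-leukocyte markers of their groups, 82.9 and 57.2 CPM. The part of those markers in the class I values was not tested beyond the covariate given below.

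RT1-S3, the rat counterpart of mouse Qa-1, which presents leader peptides of other class I chains to CD94/NKG2 receptors, gave the most class I counts in each group. Its level was 189, 124, 523, 424 and 581 CPM in ZXD, 376, 378, 278, 211 and 240 in HFD, and 588, 199, 169, 302 and 225 in CON. The ranges overlapped, and its log2 fold change was 0.31 in ZXD versus CON (SE 0.42, edgeR adjusted p = 0.598) and 0.00 in HFD versus CON. Per length, from the deposited FPKM values, which carry no TMM scaling, RT1-S3 averaged 154 ± 86.1 FPKM in ZXD, 122 ± 32.9 in HFD and 90.8 ± 52.0 in CON. On the same scale RT1-CE16 averaged 5.10 ± 6.52 FPKM in ZXD, 103 ± 97.9 in HFD and 98.3 ± 35.4 in CON, so that in CON the means of the 2 genes lay within 1 SD of each other. The share of RT1-CE16 in the summed class I FPKM was 0.207 to 2.97% in ZXD, 0.333 to 29.4% in HFD and 21.8 to 38.8% in CON. The other RT1-S row, RT1-S2, stayed at or below 0.507 CPM and was not tested.

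The classical genes RT1-A1 and RT1-A2 did not pass the test in any comparison. RT1-A2 was at 75.1, 36.4, 207, 192 and 74.3 CPM in ZXD, 43.1, 104, 123, 47.7 and 137 in HFD, and 92.9, 114, 101, 52.4 and 112 in CON. RT1-A1 was at 20.4, 3.27, 30.1, 55.8 and 20.6 CPM in ZXD, 19.1, 40.8, 19.3, 3.68 and 34.2 in HFD, and 30.2, 29.97, 42.7, 24.2 and 42.4 in CON. Both genes spread more widely in the fed groups than in CON. The log2 fold changes in ZXD versus CON were 0.31 for RT1-A2 and -0.38 for RT1-A1, with SE 0.44 and 0.58. With a pan-leukocyte score as a covariate, added after seeing the data, RT1-A1 was called lower in both comparisons with CON. The values were -2.93 in ZXD versus CON (edgeR adjusted p = 0.0485) and -2.17 in HFD versus CON (edgeR adjusted p = 0.0317). The score has a limit. It ran from -0.534 to 2.63 in ZXD and from -1.99 to -0.530 in CON, so there the covariate cannot part group from score. HFD scores ran from -1.02 to 1.17, with HFD 4 alone inside the CON range.

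**Figure D2:**
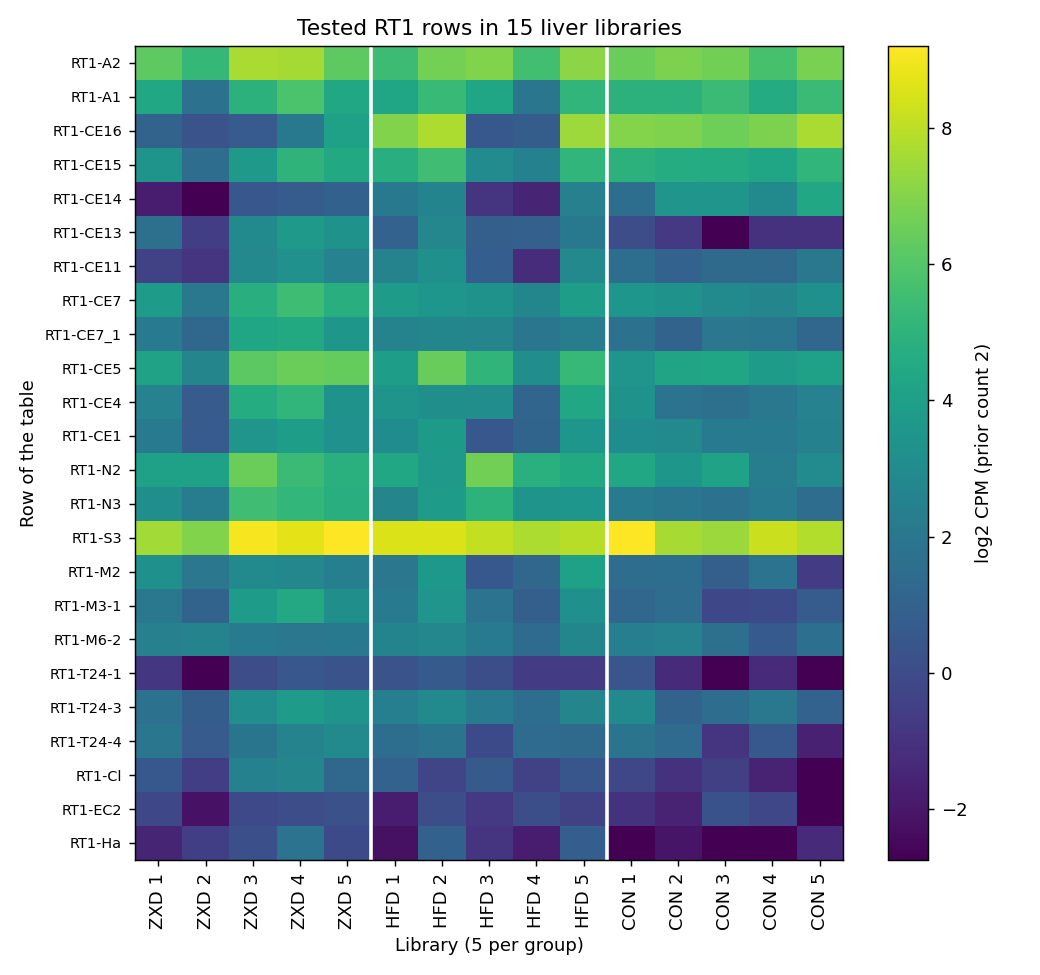
log2 CPM (prior count 2, colour) of the 24 tested RT1 rows in the 15 libraries, with ZXD on the left, then HFD, then CON. RT1-CE16 is bright in all CON libraries and in HFD 1, HFD 2 and HFD 5, and dark in HFD 3, HFD 4 and ZXD 1 to 4.

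RT1-CE16, a non-classical gene of the RT1-CE region, was the class I row with the widest switch. It stood at 1.93, 1.09, 1.47, 4.09 and 17.2 CPM in ZXD, which is 14 to 237 counts. It stood at 122, 214, 1.33, 1.57 and 175 CPM in HFD, where the 2 low libraries, HFD 3 and HFD 4, held 18 and 23 counts against 1884 to 3059 in the other 3. In CON it stood at 127, 118, 94.7, 113 and 204 CPM. All 5 CON livers and 3 HFD livers were therefore near or above 100 CPM, and 2 HFD livers and 4 ZXD livers were under 5 CPM, with ZXD 5 between them. HFD 3 and HFD 4 were at 0.623 and 0.734% of the highest HFD library.

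RT1-CE16 was lower in ZXD than in CON (log2 fold change -4.67, SE 1.19, edgeR adjusted p = 0.00963), and the groups did not overlap. That call was lost with limma voom (-5.39, adjusted p = 0.0707) and with a pan-leukocyte score as a covariate (-6.40, edgeR adjusted p = 0.103). ZXD versus HFD gave -4.32 (SE 1.17, edgeR adjusted p = 0.155), with overlap, and HFD versus CON gave -0.35 (SE 1.005, adjusted p = 0.822 by edgeR). DESeq2 called ZXD versus HFD lower, with an adjusted p of 0.00910. With libraries that fall on separate levels within HFD, the spread of a fitted mean does not describe either level. The pan-leukocyte markers summed to 184, 82.9, 482, 816 and 224 CPM in ZXD, 122, 271, 103, 57.2 and 233 in HFD, and 82.0, 58.8, 32.9, 57.2 and 28.6 in CON. Within HFD the lowest sums were those of HFD 3 and HFD 4, where RT1-CE16 was low too, while every ZXD sum was above every CON sum. Their part in the RT1-CE16 values was not tested beyond the covariate.

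The switch was looked for along the rest of the table. In HFD, 7 rows that reached 5 CPM were under 5% of their highest HFD library in HFD 3 and HFD 4 and in no other: RT1-CE16, Ddr1, RT1-Ba, RT1-Bb, Bcat1, Mmp12 and RGD1562652. RT1-Ba and RT1-Bb are class II chain genes. Of the 7 rows, 4 lie on the sequence of the table's assembly that holds RT1-CE16, and RT1-CE16 is itself among the 4 by definition. That sequence holds 608 rows, 2.82% of the table. Whether the 7 rows gather there was not tested. Within 500 kb of RT1-CE16 in the table's own coordinates, whose assembly is not named in the sources used here, 1 of 22 neighbours with a group mean of 1 CPM or more did so. That neighbour was Ddr1, a collagen receptor kinase gene 216 kb away, named here after its values were seen. No class I row was among the 22, although RT1-CE13 lies near RT1-CE16 in GRCr8. In the table's assembly, 9 of the 36 class I rows lie on other, short sequences.

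Ddr1 stood at 1.10, 1.48, 3.07, 7.38 and 3.26 CPM in ZXD, 34.1, 57.5, 1.48, 2.11 and 66.4 in HFD, and 41.9, 16.3, 19.2, 16.4 and 37.7 in CON. The same 2 HFD libraries were low in Ddr1 as in RT1-CE16, and all 5 ZXD libraries were below all 5 CON libraries. Its log2 fold change was -3.00 in ZXD versus CON (SE 0.87, edgeR adjusted p = 0.0180), and it was not called in the other 2 comparisons. The other 21 expressed neighbours did not have HFD 3 and HFD 4 both under 5%.

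RT1-CE14 was the 1 class I row that met the strict on-off definition, at least 1 library of a group at 5 CPM or more and at least 1 of the same group at 3 counts or fewer. It stood at 0.138, 0, 1.26, 1.53 and 1.81 CPM in ZXD, at 0 to 25 counts. It stood at 4.14, 6.14, 0.369, 0.204 and 5.36 CPM in HFD, where HFD 4 had 3 counts and HFD 3 had 5, and at 2.87, 11.1, 11.0, 7.63 and 21.2 CPM in CON. The same 2 HFD libraries were low as for RT1-CE16, and the ZXD libraries all lay below the CON libraries. RT1-CE14 was lower in ZXD than in CON (log2 fold change -3.48, SE 0.93, edgeR adjusted p = 0.0120). HFD versus CON gave -1.73 (SE 0.84) and ZXD versus HFD -1.76 (SE 0.90), neither called. No other row of the table was high and near 0 in exactly the same libraries of all 15.

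**Figure D3:**
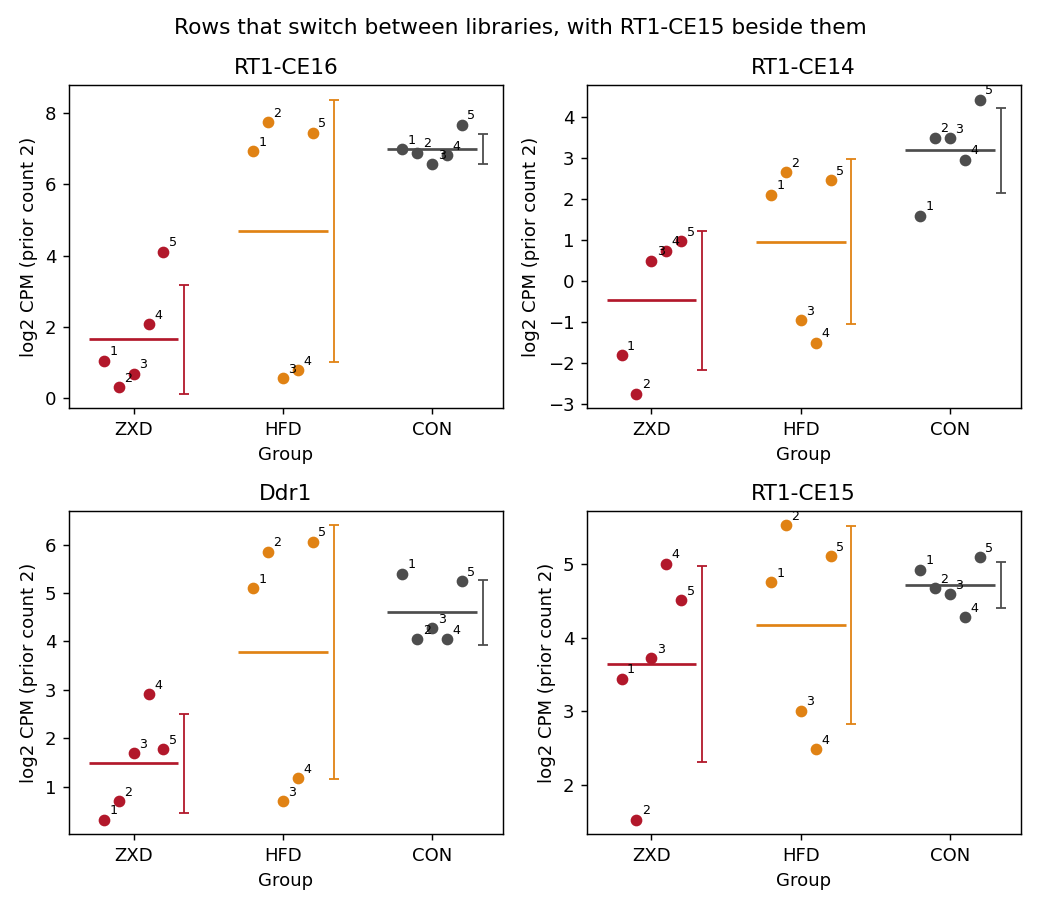
log2 CPM (prior count 2) of RT1-CE16, RT1-CE14, Ddr1 and RT1-CE15 by group, ZXD, HFD and CON from left to right. Points are libraries with their numbers, lines are means and bars are 1 SD (n = 5 each). HFD 3 and HFD 4 lie with the low ZXD livers for RT1-CE16 and Ddr1, at 1.33 and 1.57 CPM for RT1-CE16.

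By the strict definition, on-off rows numbered 0 of the 20 class I rows that reached 5 CPM in ZXD, 1 of 19 in HFD and 0 of 13 in CON. Over the whole table the share was 0.788% in ZXD, 0.406% in HFD and 0.311% in CON. With near zero taken instead as under 5% of the highest library of the group, there were 3 in ZXD (RT1-CE4, RT1-CE11 and RT1-CE13), 3 in HFD (RT1-CE11, RT1-CE14 and RT1-CE16) and 0 in CON. The table-wide shares were then 2.16% in ZXD, 1.02% in HFD and 0.514% in CON. All of the 5 rows named belong to the RT1-CE family, which also gave 10 of the 24 tested class I rows. Whether such values are particular to that family was not tested.

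Most of those rows fell under 5% only in ZXD 2 or HFD 4, the libraries low for most class I genes. Just above that line, RT1-CE14 was also low in HFD 3 (0.369 CPM) and RT1-CE11 in ZXD 1 (0.619 CPM). Whether the low values belonged to the library or to the row was not tested. The 3 in ZXD were low in ZXD 2, together with 137 rows of the table in all, and RT1-CE11 and RT1-CE14 in HFD fell under 5% in HFD 4 alone, together with 40 rows in all. RT1-CE11 stood at 0.619, 0.390, 7.20, 9.70 and 5.65 CPM in ZXD, 5.83, 9.42, 1.62, 0.273 and 7.19 in HFD, and 2.87, 1.87, 2.47, 2.48 and 4.00 in CON. RT1-CE4 stood at 5.78, 1.48, 25.1, 34.1 and 10.0 CPM in ZXD, 10.7, 9.21, 8.79, 2.04 and 20.4 in HFD, and 10.2, 3.39, 3.04, 3.90 and 5.79 in CON. CON was even by comparison in both genes, and neither was called in any comparison.

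RT1-CE15 and RT1-CE1 were also low in HFD 3 and HFD 4, to a smaller degree. RT1-CE15 stood at 10.7, 2.73, 13.1, 32.0 and 22.6 CPM in ZXD, 26.9, 46.1, 7.90, 5.45 and 34.4 in HFD, and 30.3, 25.3, 24.0, 19.3 and 34.2 in CON. RT1-CE1 stood at 4.33, 1.48, 11.2, 14.8 and 9.57 CPM in ZXD, 8.22, 13.5, 1.26, 1.98 and 11.4 in HFD, and 8.34, 7.49, 4.28, 4.43 and 5.62 in CON. For RT1-CE15, ZXD 1, ZXD 2 and ZXD 3 lay below every CON liver and no ZXD liver lay above them all, while RT1-CE1 in ZXD spread to both sides of CON. Neither gene was called in any comparison, but with the pan-leukocyte score as a covariate RT1-CE15 was called lower in ZXD versus CON (-2.95, edgeR adjusted p = 0.0446). The limit of that score given above holds here too. The promoter windows of RT1-CE15 and RT1-CE16 were identical at 70% of bases.

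Against the 5 CON livers, the HFD livers had 2 class I rows called higher of 24 tested (8.33%), set against 10% of all 13163 tested genes, and 0 called lower, against 10.9%. At an unadjusted p under 0.05 there were 7 rows, 29.2%, against 37% of all genes. The median log2 fold change of the 24 was 0.72, and that of all tested genes 0.02. The share called higher was thus near that of the table, while the share called lower was below it. The 2 rows, RT1-CE13 and RT1-N3, were also the 2 whose HFD and CON libraries did not overlap, a state shared by 15% of all genes. RT1-CE13 passed the count filter through fed livers, where it was higher.

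RT1-CE13 stood at 3.03, 0.546, 7.69, 12.5 and 10.1 CPM in ZXD and 1.88, 6.84, 1.70, 1.77 and 4.14 in HFD, and was nearly silent in CON, at 0.897, 0.446, 0, 0.355 and 0.341 CPM (0 to 10 counts). All 5 HFD livers were above every CON liver, and 4 of 5 ZXD livers were, ZXD 2 being the exception. The log2 fold change was 4.02 in ZXD versus CON (SE 0.81, edgeR adjusted p = 0.00311) and 2.97 in HFD versus CON (SE 0.80, edgeR adjusted p = 0.0190). The size is uncertain because CON held so few counts, and without HFD 2 the HFD versus CON call was lost (adjusted p = 0.0528 by edgeR). This is the gene whose promoter window, printed above, is nearest to that of RT1-CE16, and of these 2 windows that of RT1-CE16 alone holds TGACGC.

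RT1-N3 stood at 9.22, 4.83, 45.6, 35.5 and 26.7 CPM in ZXD, 6.22, 13.8, 31.2, 10.6 and 11.3 in HFD, and 4.31, 3.75, 3.14, 4.26 and 2.73 in CON. Every liver of either fed group was above every CON liver. The log2 fold change was 2.74 in ZXD versus CON (SE 0.56, edgeR adjusted p = 0.00326) and 2.00 in HFD versus CON (SE 0.55, edgeR adjusted p = 0.0204). The HFD versus CON call was lost without HFD 3 or without CON 5, where the edgeR adjusted p was at most 0.0541. RT1-N2, the other RT1-N row, stood at 17.1, 17.1, 91.7, 41.4 and 28.9 CPM in ZXD, 20.9, 12.4, 99.6, 28.5 and 22.8 in HFD, and 20.7, 11.95, 17.7, 4.61 and 7.92 in CON. RT1-N2 was highest in the same HFD library as RT1-N3, HFD 3, and was not called (ZXD versus CON 1.64, SE 0.61, adjusted p = 0.0513 by edgeR).

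**Figure D4:**
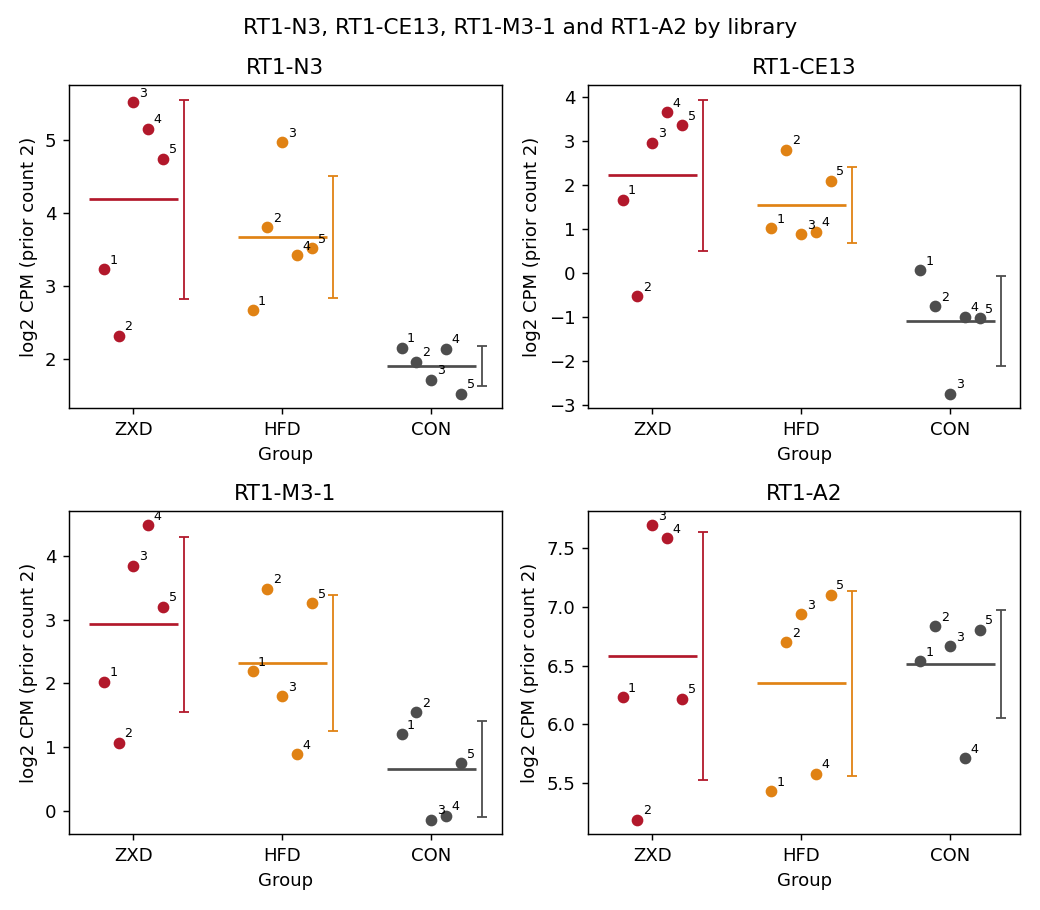
log2 CPM (prior count 2) of RT1-N3, RT1-CE13, RT1-M3-1 and RT1-A2 by group, ZXD, HFD and CON from left to right. Points are libraries with their numbers, lines are means and bars are 1 SD (n = 5 each). For RT1-N3 all ZXD and HFD points lie above the CON points, which reach 4.31 CPM, while those of RT1-A2 overlap.

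ZXD livers against CON had 7 class I rows called higher of 24 (29.2%), where 17.9% of all genes were called higher, and 2 called lower (8.33%), where 14.8% were. At an unadjusted p under 0.05 there were 14, 58.3%, against 43.7% of all genes, and the median log2 fold change was 1.24, against 0.03. The 7 were RT1-CE13, RT1-N3, RT1-Cl, RT1-CE7_1, RT1-M3-1, RT1-Ha and RT1-CE7, and the 2 were RT1-CE16 and RT1-CE14. In CON, RT1-CE13, RT1-Cl and RT1-Ha held at most 10, 8 and 3 counts. Those rows passed the count filter through fed livers and could hardly be called lower there, which limits the comparison of shares. RT1-Ha, the class II locus, is among the 7 and the 24. Groups without overlap numbered 4 (16.7%), against 18% of all genes: RT1-N3, RT1-CE16, RT1-CE14 and RT1-M2. Whether ZXD versus CON differed from HFD versus CON was read only from ZXD versus HFD, since the first 2 comparisons share the CON livers. With a pan-leukocyte score as a covariate, added after seeing the data, 0 class I rows were called higher in either comparison with CON. RT1-M3-1 (-0.24) and RT1-CE7 (-0.43), called higher in ZXD versus CON without it, then had negative values, under the limit of that score given above. Without the covariate, limma voom called 0 in HFD versus CON and 2 in ZXD versus CON.

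RT1-M3-1, whose mouse counterpart presents peptides that begin with N-formylmethionine, stood at 3.92, 1.95, 14.3, 22.2 and 9.06 CPM in ZXD, 4.40, 11.0, 3.32, 1.70 and 9.42 in HFD, and 2.15, 2.76, 0.760, 0.798 and 1.53 in CON. The ZXD and CON ranges overlapped through ZXD 2. The log2 fold change in ZXD versus CON was 2.67 (SE 0.66, edgeR adjusted p = 0.00845), and HFD versus CON gave 1.89 (SE 0.66, edgeR adjusted p = 0.0525). RT1-M2 stood at 9.50, 3.82, 7.83, 6.65 and 5.22 CPM in ZXD, 3.88, 12.1, 1.33, 2.11 and 16.7 in HFD, and 2.69, 2.85, 1.71, 3.37 and 0.511 in CON. Each ZXD liver was above each CON liver for RT1-M2, but it was not called (1.57, SE 0.63, edgeR adjusted p = 0.0676).

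RT1-CE7 stood at 13.9, 3.98, 27.4, 45.3 and 27.4 CPM in ZXD, 14.6, 11.4, 9.97, 6.61 and 15.1 in HFD, and 11.4, 10.5, 7.79, 6.38 and 9.28 in CON. Its copy RT1-CE7_1 stood at 4.40, 2.26, 20.1, 22.9 and 11.8 CPM in ZXD, 5.89, 6.63, 6.35, 3.75 and 4.61 in HFD, and 3.14, 1.96, 3.90, 3.72 and 2.13 in CON. Both were high in ZXD 3, ZXD 4 and ZXD 5 and low in ZXD 2. In ZXD versus CON the log2 fold change was 1.38 for RT1-CE7 (SE 0.45, edgeR adjusted p = 0.0288) and 2.05 for RT1-CE7_1 (SE 0.50, edgeR adjusted p = 0.00765). The RT1-CE7 call was lost without any 1 of ZXD 3, ZXD 4, ZXD 5, CON 3, CON 4 or CON 5 (edgeR adjusted p up to 0.0969), and with only ZXD and CON fitted (edgeR adjusted p = 0.0520).

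RT1-CE5 had the most counts of the RT1-CE rows in ZXD, at 17.3, 6.24, 72.4, 91.1 and 83.3 CPM, against 15.2, 84.9, 33.4, 8.73 and 38.6 in HFD and 11.0, 18.4, 19.3, 14.5 and 16.9 in CON. ZXD 3, ZXD 4 and ZXD 5 lay above all CON livers, but RT1-CE5 was just outside the threshold (1.76, SE 0.65, edgeR adjusted p = 0.0514). RT1-Cl stood at 1.31, 0.546, 5.52, 6.23 and 2.32 CPM in ZXD, 1.88, 0.698, 1.40, 0.613 and 1.22 in HFD, and 0.718, 0.357, 0.570, 0.177 and 0 in CON. With 0 to 8 counts in CON, its value of 3.11 in ZXD versus CON (SE 0.73, edgeR adjusted p = 0.00637) is uncertain in size. RT1-Ha, the class II locus, stood at 0.206, 0.546, 0.978, 3.30 and 0.797 CPM in ZXD, 0.0647, 1.81, 0.369, 0.136 and 1.63 in HFD, and 0 to 0.256 in CON (0 to 3 counts). It was called in ZXD versus CON (edgeR adjusted p = 0.0185) with no size given, and the call was lost without ZXD 4 (edgeR adjusted p = 0.0649).

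The remaining tested rows were not called. RT1-M6-2 was the steadiest, at 5.30, 5.85, 4.19, 3.78 and 4.06 CPM in ZXD, 6.09, 6.70, 4.51, 2.52 and 6.58 in HFD, and 5.20, 5.71, 3.04, 1.42 and 2.90 in CON. RT1-T24-3 ranged over 1.56 to 14.0 CPM in ZXD, 2.79 to 7.75 in HFD and 1.87 to 7.54 in CON, and RT1-T24-4 over 1.48 to 7.83 CPM in ZXD, 0.812 to 3.42 in HFD and 0.170 to 3.41 in CON. Those ranges overlapped throughout. RT1-T24-1 and RT1-EC2 stayed at or below 1.40 CPM in every library. The 12 untested rows reached at most 2.81 CPM (46 counts, RT1-CE3 in ZXD 4), and 2 of them, RT1-M1-4 and RT1-M1-5, had 0 counts in all 15 libraries.

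ZXD livers against HFD livers had 0 class I rows called in either direction by edgeR, where 0% of all genes were called higher and 0% lower. At an unadjusted p under 0.05 there were 4 of 24 (16.7%), against 16.5% of all genes: RT1-CE16 lower, and RT1-CE7, RT1-CE7_1 and RT1-Cl with positive differences of 1.03, 1.17 and 1.45. The median log2 fold change of the 24 was 0.34 and that of all genes 0.02, and 0 rows were without overlap, against 3.68% of all genes.

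**Figure D5:**
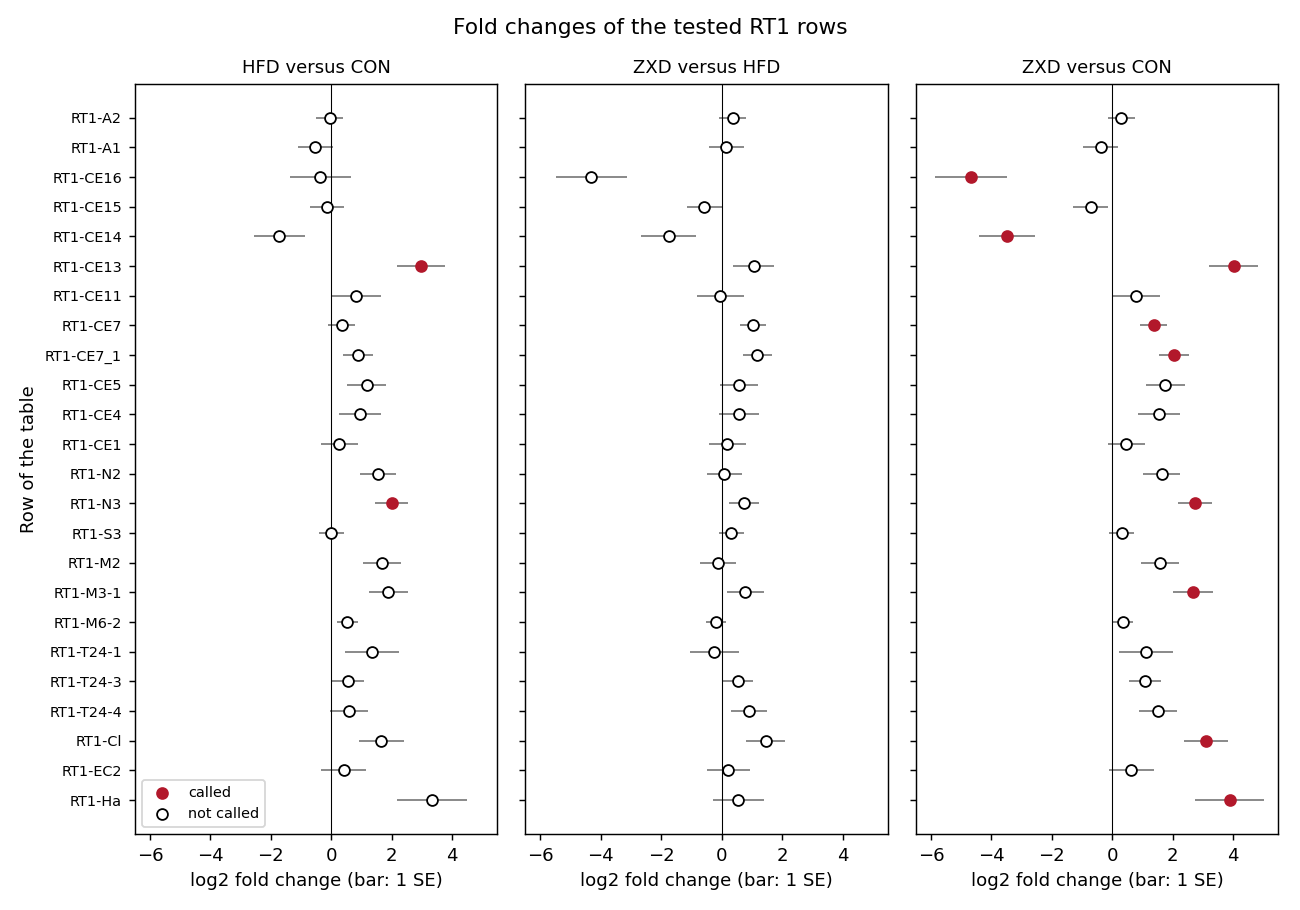
log2 fold change of the 24 tested RT1 rows in the 3 comparisons (points, with bars of 1 SE), filled where called at an edgeR adjusted p under 0.05. RT1-CE16 and RT1-CE14 are the called rows left of 0, at -4.67 and -3.48 in ZXD versus CON.

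The partners of the class I chains were counted from gene lists. B2m, the light chain, stood at 1611, 1118, 2817, 3113 and 3229 CPM in ZXD, 1611, 2800, 1772, 1198 and 2326 in HFD, and 1970, 1951, 1892, 1704 and 1457 in CON. ZXD 2 and HFD 4 were again the lowest of their groups, and B2m was not called (ZXD versus CON 0.41, SE 0.29, edgeR adjusted p = 0.297). Of 13 genes of peptide supply and loading, 5 were higher and 1 lower (Canx, a chaperone) in HFD versus CON, 10 were higher in ZXD versus CON, and 0 were called in ZXD versus HFD. The list's median log2 fold change was 1.10 in HFD versus CON and 1.44 in ZXD versus CON, beside 0.02 and 0.03 over all genes. Of all tested genes, 10% were called higher and 10.9% lower in HFD versus CON. The shares in ZXD versus CON were 17.9% and 14.8%. The counts of the lists below stand beside the same shares.

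Tap1, a subunit of the peptide transporter, stood at 34.3, 13.02, 259, 184 and 189 CPM in ZXD, 152, 192, 75.4, 27.9 and 105 in HFD, and 46.5, 16.7, 12.5, 28.7 and 19.5 in CON. It was high in the livers where the summed class I level was high within ZXD, and it was called in ZXD versus CON (2.45, SE 0.70, edgeR adjusted p = 0.0164) and in HFD versus CON (2.16, SE 0.69, edgeR adjusted p = 0.0400). Tap2, its partner, and Psmb9, a subunit of the immunoproteasome, were called higher in both comparisons too, at 2.44 and 3.07 in ZXD versus CON and 1.76 and 2.53 in HFD versus CON. Tapbp, which bridges class I to the transporter, and Psmb8 were called in ZXD versus CON, at 1.28 and 2.01. In HFD versus CON they were not, at 1.01 and 1.17, and no test separated the comparisons.

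Of 16 genes that act in class I transcription, 4 were higher and 0 lower in HFD versus CON. Another 8 higher and 3 lower calls fell in ZXD versus CON, and 0 in ZXD versus HFD. The median log2 fold change of this list was 0.31 in HFD versus CON and 0.32 in ZXD versus CON. Irf1, an interferon-induced activator of class I genes, stood at 35.8, 16.3, 317, 194 and 151 CPM in ZXD, 114, 121, 74.7, 30.2 and 111 in HFD, and 16.1, 16.1, 15.2, 14.99 and 9.11 in CON. Every fed liver was above every CON liver, and Irf1 was called in ZXD versus CON (3.32, SE 0.64, edgeR adjusted p = 0.00252) and HFD versus CON (2.66, SE 0.63, edgeR adjusted p = 0.00982). Nlrc5, the class I transactivator, averaged 80.3 ± 53.3 CPM in ZXD, 62.0 ± 35.2 in HFD and 21.3 ± 8.95 in CON, and was called in ZXD versus CON (1.91, edgeR adjusted p = 0.0165).

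Of 9 genes of interferon signalling, 5 were higher in ZXD versus CON, among them Jak2 (1.41) and Ifng, which had 0 counts in all 5 CON livers and is given no fold, and 0 were called in HFD versus CON or ZXD versus HFD. Of the 9 tested genes for receptors that read class I, 8 were higher in ZXD versus CON and 7 in HFD versus CON, among them Cd8a, the CD8 alpha chain, at 3.59 and 3.45. Those receptors are carried by leukocytes, whose markers rose as well: 10 of 10 tested T and NK cell markers were called higher in ZXD versus CON and 5 of 10 in HFD versus CON. Summed T and NK cell markers were 39.9 to 145 CPM in ZXD, 28.7 to 69.8 in HFD and 12.8 to 36.7 in CON. Of 5 tested class I relatives outside the RT1 names, Azgp1 and Fcgrt, the neonatal Fc receptor, were lower in ZXD versus CON (-0.98 and -0.44), and 0 were called in the other comparisons.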

How the data were processed

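Liver RNA libraries of 3 groups of 5 were used. Total RNA was purified with Trizol, per the labels' protocols. For the aligner, counter, strand use, genome build and annotation, the entry is: not given in the sources used here. The authors deposited read counts per gene and FPKM values, per the file headers. edgeR is listed, without a version, in the submitters' processing notes. The deposited FPKM values equal the count divided by gene length and library total (100% of values above 0 within 0.01%), and served only to compare genes per length.

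Counts were scaled with TMM in edgeR 4.0.16 (R 4.3.3) and low rows removed by filterByExpr (grouped, count of at least 10, total of at least 15), leaving 13163 of 21576 rows. All 15 libraries entered 1 quasi-likelihood fit (robust, group as the sole term, 12 residual degrees of freedom), checked on simulated counts. Adjusted p-values are Benjamini-Hochberg values over all tested genes within a comparison, called under 0.05, with no fold minimum. SE is the log2 fold change over the square root of F. On-off definitions are given with their results. Rows named with values are those with a group mean of at least 1 CPM, called rows and on-off rows. From the lists, fixed genes and a few called members are named. Some of the fixed genes are not reported here. Members and lists were chosen with earlier results of these data known. Promoter windows came from RefSeq by symbol (33 of 36 names found). Alternatives were DESeq2 1.42.0, limma 3.58.1 voom, other scalings and filters, a replicate block, 2-group fits and fits without each library. A simvastatin group was not analysed here.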

Additional observations from a re-analysis of the deposited data

Results flagged for a closer look

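In 3 of 66 screened groups of 5 values, 1 library lay far from the other 4 by Dixon's test, and chance flags about 1 in 20 such groups. RT1-CE16 was at 17.2 CPM in ZXD 5, while the other ZXD livers held 1.09 to 4.09 CPM. RT1-Ha was at 3.30 CPM in ZXD 4, while the other ZXD livers held 0.206 to 0.978 CPM. RT1-N2 was at 99.6 CPM in HFD 3, while the other HFD livers held 12.4 to 28.5 CPM.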

How the results depend on the processing

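Class I rows called higher in HFD versus CON numbered 2, and 8 on library totals, 6 with DESeq2, 0 with limma voom, 4 with only those 2 groups fitted, and 1 to 5 with 1 library left out (fewest without HFD 2, most without HFD 4). In ZXD versus CON the 7 became 13 on library totals, 11 with DESeq2, 2 with voom and 5 to 12 with 1 library left out (most without ZXD 2), and the 2 lower became 1 with voom, where RT1-CE16 had an adjusted p of 0.0707. RT1-CE16 and RT1-CE14 stayed called in ZXD versus CON in every fit without 1 library (highest edgeR adjusted p 0.0263 and 0.0335). In ZXD versus HFD, DESeq2 called 1 lower, RT1-CE16. Library totals moved the median of all genes by 0.42 in HFD versus CON and 0.43 in ZXD versus CON. The part of that shift in the added calls, and the cause of the other changes, were not tested. List genes are here those of peptide supply and loading, the light chain, class I transcription and interferon signalling. The receptor, relative and cell marker lists were not counted under the alternatives. List genes called higher in HFD versus CON numbered 9. They became 27 on library totals, 3 with no filter, 20 with DESeq2, 2 with voom, 18 with 2 groups fitted and 2 to 18 with 1 library left out. For ZXD versus CON the 23 became 19 to 24 with 1 library left out.

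Chosen after seeing the data, a pan-leukocyte score as a covariate left 0 class I rows and 0 of those list genes higher in either comparison with CON. It left 1 class I row lower in HFD versus CON, RT1-A1. ZXD and CON shared almost no score values, so there the covariate cannot part group from score. In ZXD versus CON it left 2 lower, RT1-A1 and RT1-CE15, while RT1-CE16 (-6.40, edgeR adjusted p = 0.103) and RT1-CE14 (-5.60, edgeR adjusted p = 0.0752) were no longer called. The covariate changed the sign of 12 class I rows in ZXD versus CON, namely RT1-A2 (-1.38), RT1-CE1 (-2.13), RT1-CE11 (-2.58), RT1-CE4 (-1.73), RT1-CE5 (-0.80), RT1-CE7 (-0.43), RT1-EC2 (-0.038), RT1-M2 (-0.074), RT1-M3-1 (-0.24), RT1-S3 (-0.93), RT1-T24-1 (-1.13) and RT1-T24-3 (-0.96), of which RT1-CE7 and RT1-M3-1 had been called higher. It changed the sign of 13 uncalled rows in ZXD versus HFD, namely RT1-A1 (-0.76), RT1-A2 (-0.37), RT1-CE1 (-0.71), RT1-CE13 (-0.0016), RT1-CE4 (-0.91), RT1-CE5 (-0.29), RT1-EC2 (-0.081), RT1-Ha (-0.45), RT1-M3-1 (-0.36), RT1-N2 (-0.34), RT1-N3 (-0.098), RT1-S3 (-0.28) and RT1-T24-3 (-0.39), and of 9 uncalled rows in HFD versus CON, namely RT1-CE1 (-1.42), RT1-CE11 (-1.35), RT1-CE4 (-0.82), RT1-CE5 (-0.51), RT1-CE7 (-0.61), RT1-CE7_1 (-0.069), RT1-S3 (-0.65), RT1-T24-3 (-0.57) and RT1-T24-4 (-0.054). Leaving out HFD 4 and ZXD 2 gave 6 class I rows and 21 list genes higher in HFD versus CON, and 12 class I rows in ZXD versus CON, and turned RT1-A2 and RT1-CE15 to 0.13 in HFD versus CON. A fit without HFD 3 and HFD 4 was also run and is not given, since those libraries were picked on RT1-CE16 itself.

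Deviations of same-numbered livers had r above 0.1, a cutoff and not a test, in 3 of 5 pairs in HFD versus CON (r -0.08 to 0.26). That held for 1 of 5 pairs in ZXD versus HFD (r -0.55 to 0.11) and 0 of 5 in ZXD versus CON (r -0.16 to 0.015). The largest values in size were negative, -0.547 and -0.541 for numbers 2 and 4 in ZXD versus HFD. Without values for differently numbered livers beside them, these do not settle whether the numbers pair the livers. With the replicate block, HFD versus CON had 1 class I row and 2 list genes higher, and RT1-M2 in ZXD versus HFD reversed to 0.15. The calls of RT1-CE7 in ZXD versus CON (1.26, edgeR adjusted p = 0.0975) and RT1-CE13 in HFD versus CON (2.91, edgeR adjusted p = 0.0596) were lost with the block.

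On-off rows in ZXD, 0, became 2 at 2 CPM and 3 at 10 counts or under 5%. In HFD, 1 became 0 at 10 CPM or at 0 counts, 2 at 10 counts, 3 under 5% and 0 to 1 with a library left out. In CON, 0 became 1 at 2 CPM. Under the alternatives other than the covariate, no value that changed sign was called: in HFD versus CON RT1-S3 (-0.00098 with RLE scaling or DESeq2, -0.0060 with no filter), RT1-A2 (0.36), RT1-CE15 (0.28) and RT1-CE16 (0.071) on library totals, and RT1-CE1 (-0.19) with voom; RT1-CE11 (0.022, ZXD versus HFD) and RT1-A1 (0.12, ZXD versus CON) on library totals; and RT1-M2 (0.43, ZXD versus HFD) with voom. With 1 library left out, HFD versus CON ranged over -0.25 to 0.12 for RT1-A2, -0.078 to 0.53 for RT1-CE1, -0.51 to 0.11 for RT1-CE15 and -0.14 to 0.41 for RT1-S3, and RT1-A2 in ZXD versus CON over -0.0021 to 0.51. ZXD versus HFD ranged over -0.33 to 0.45 for RT1-A1, -0.13 to 0.54 for RT1-CE1, -0.49 to 0.34 for RT1-CE11, -0.038 to 0.46 for RT1-EC2, -0.34 to 1.09 for RT1-Ha, -0.39 to 0.45 for RT1-M2, -0.49 to 0.89 for RT1-N2 and -0.53 to 0.031 for RT1-T24-1. The summed level stayed within 1 SD, at 672 to 899 CPM in ZXD, 627 to 791 in HFD and 592 to 705 in CON.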
